A study of Mus musculus with 12 samples.

Results

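Gene expression in mouse kidney injured by rhabdomyolysis (acute loss of skeletal muscle fibres) was compared with that of control kidney in 8 of the 12 libraries of the series. The libraries were chosen by their titles: 4 titled AKI_A_mcherry, called AKI_mcherry here, and 4 titled NC. Besides the injury, the title AKI_A_mcherry carries the name of a red fluorescent protein, mCherry. The titles spell out neither NC nor the letter A. In the series, the injury followed 3 weeks after overexpression of an FGF23 variant (R176Q/R179Q), whose libraries form the third group and are not used here. No library with mCherry and without injury was analysed, so the injury cannot be told apart from whatever else separates the groups. The labels give the tissue as renal and name no strain, age, sex or day of collection. Whether each library is its own animal is not stated, so p-values measure only the spread between these libraries. Of 32047 genes in the deposited table, 18724 passed an expression filter and are described here, and 13323 did not.

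Muscle breakdown releases myoglobin, potassium and other cell contents into the blood, and filtered heme protein is taken up by the proximal tubule, the nephron segment that reclaims most of the filtrate. That segment runs on the oxidation of fatty acids and amino acids in mitochondria and peroxisomes, and it also makes glucose. After injury, surviving tubule cells are known to lose these differentiated functions for a time, to switch on stress and growth genes, and to divide.

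Counts summed to 55324078 to 70638283 per library. Levels are given as CPM, a gene's count scaled to the size of its library with TMM factors, which correct for differences in RNA composition. Where 4 values follow each other, they are replicates 1 to 4, in that order. Differences are log2 changes of AKI_mcherry against NC with their standard error, from edgeR's quasi-likelihood test on 4 libraries per group. Every change given for a gene, as in a rise by some amount or as a signed number in brackets, is such a log2 change. A gene is said to rise or fall where its p-value, adjusted over all genes tested by the Benjamini-Hochberg method, was under 0.05. By that rule 53.1% of the genes tested changed, of which 5088 rose and 4859 fell, 27.2% and 26.0% of those tested. Counts of list or family members that rose or fell are to be read against these shares. Changes of at least 4-fold were found in 858 rising and 1118 falling genes. The AKI_mcherry libraries lay wholly above or wholly below all NC libraries for 51.3% of genes. The median change over all genes was -0.00264 on the log2 scale, and 0.12 when libraries were scaled by their totals alone. The first principal component, with 78.6% of the variance, separated the groups. On the second, with 6.16%, AKI_mcherry replicates 2 and 3 stood at opposite ends, at -26.0 and 28.6. The median SD of log2 CPM within a group was 0.271 in AKI_mcherry and 0.216 in NC, and 62.6% of genes had the larger SD in AKI_mcherry. As a check of the labels, Havcr1, the gene of the tubular injury molecule KIM-1, was at 2936, 2486, 1760.5 and 3456 CPM in AKI_mcherry and 4.42, 1.72, 2.67 and 3.34 CPM in NC.

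**Figure D1:**
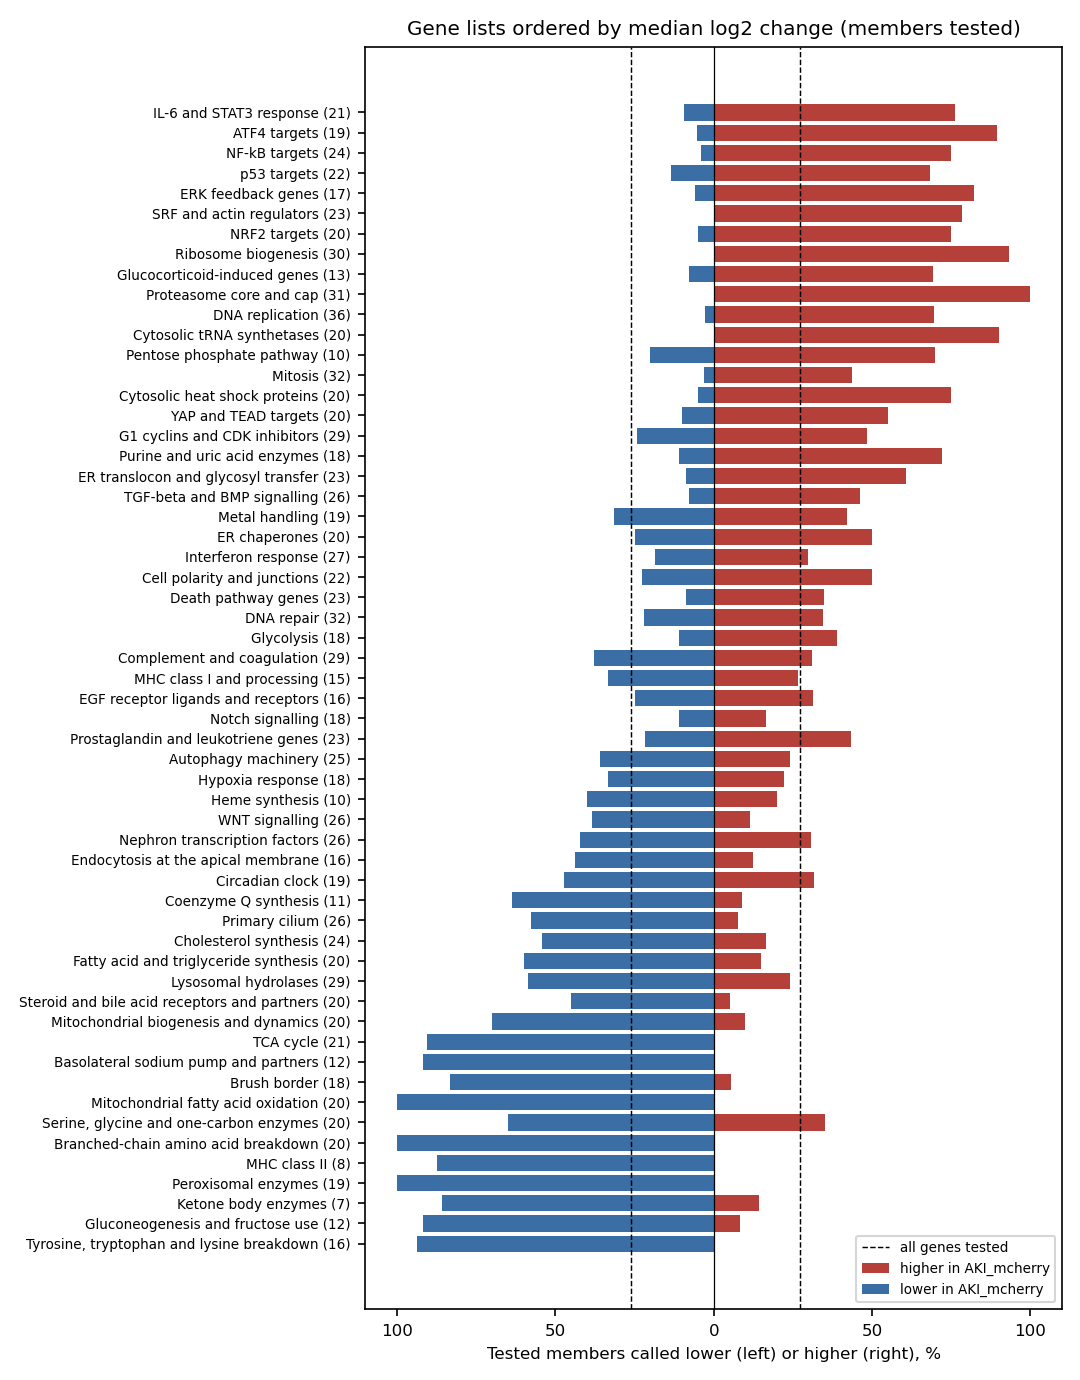
Share of the tested members of each gene list that fell (blue, left) or rose (red, right) in AKI_mcherry against NC, with lists ordered by median log2 change and the number of members tested in brackets. Dashed lines mark the shares over all genes tested, 26.0% lower and 27.2% higher. Lists of amino acid, fatty acid and glucose metabolism sit at the bottom, and lists of cytokine, stress and ribosome or proteasome genes near the top.

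A few very abundant transcripts changed the make-up of the RNA pool. To compare levels between genes, each gene's FPKM (fragments scaled for gene length and library total) was expressed as a percentage of the library's FPKM sum. The largest gain was that of Spp1, the gene of osteopontin, a secreted phosphoprotein that binds integrins and calcium crystals: its share was 0.0804, 0.0754, 0.0698 and 0.0681% in NC and 3.25, 2.95, 3.44 and 3.36% in AKI_mcherry. By mean share Spp1 went from rank 90 of all genes in NC to rank 3 in AKI_mcherry, and the groups were far apart. The ferritin genes Ftl1 and Fth1, whose proteins store iron, and Clu, for the secreted chaperone clusterin, were the next nuclear genes by gain. Ftl1 went from a mean share of 0.305% to 0.915%, Fth1 from 0.224% to 0.462% and Clu from 0.0147% to 0.340%. Mt1 and Mt2, metallothioneins that bind zinc and copper, reached 0.170% and 0.216% from 0.00855% and 0.00492%. On the losing side, Kap, an androgen-dependent transcript of the proximal tubule, held 5.66, 5.03, 5.56 and 4.69% in NC and 2.60, 3.58, 1.55 and 2.65% in AKI_mcherry. Kap varied more between the injured libraries than Spp1 did, with replicate 3 lowest, yet all 4 stayed below NC. Slc27a2, a fatty acid transporter with acyl-CoA synthetase activity, fell from 0.217% to 0.0370%. Transcripts of mitochondrial DNA summed to 29.6 to 32.6% in AKI_mcherry and 32.9 to 35.2% in NC. As a share of counts, not scaled for gene length, the same transcripts were at 13.8 to 17.1% in AKI_mcherry and 15.3 to 16.9% in NC, with overlapping groups. They made up 8 of the 24 genes with the largest shifts, of which the ribosomal RNAs mt-Rnr1 and mt-Rnr2 gained and the others lost.

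**Figure D2:**
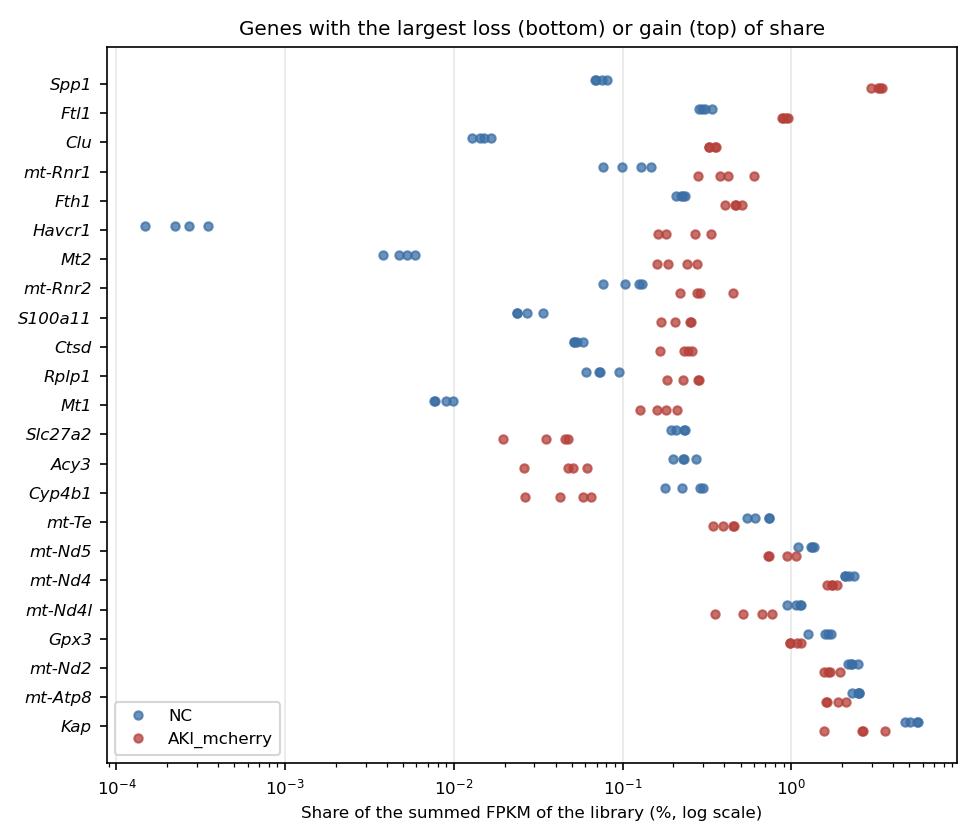
Share of the summed FPKM in each library (log axis) for the genes with the largest gain, at the top, and those with the largest loss, at the bottom, less 1 that is not reported here. Each point is 1 library. Spp1 rose from a mean of 0.0734% to 3.25%, and Kap went from 5.23% to 2.60%.

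The enzymes that burn fuel in the tubule fell as whole pathways. Against 26.0% of all genes, all 20 genes of mitochondrial fatty acid oxidation tested fell (median log2 change -1.30), as did all 19 peroxisomal enzyme genes (median -1.98) and all 20 genes that degrade valine, leucine and isoleucine (median -1.44). Acadm, the medium-chain acyl-CoA dehydrogenase, was at 256, 235, 167 and 235 CPM in AKI_mcherry and 1319, 1077, 1102 and 1157 CPM in NC (log2 change -2.38 ± 0.15, adjusted p = 5.57e-07). Its injured libraries were all far below the controls, replicate 3 lowest. The peroxisomal genes Pecr, for an enoyl-CoA reductase (-3.74), and Amacr, which prepares branched chains for oxidation (-3.49), fell further than Acads, the mitochondrial short-chain dehydrogenase (-1.32). In the citric acid cycle 19 of 21 genes fell and none rose, with a median of -0.86, among them Idh2 (-1.78) and Suclg1 (-1.39). All 16 proximal tubule markers tested fell too: their summed level was 40002 to 43982 CPM in NC and 7269 to 18061 CPM in AKI_mcherry. The part of the loss of proximal tubule RNA in these changes was not tested. In bulk tissue, fewer cells of a type and less RNA per cell cannot be told apart.

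Steeper falls were found in the breakdown of single amino acids and in glucose production. Of 16 genes that degrade tyrosine, tryptophan and lysine, 15 fell (median -2.69), among them Hpd, which follows transamination in tyrosine breakdown (-4.96 ± 0.22), Acmsd, which diverts tryptophan away from NAD synthesis (-3.92 ± 0.14), and Haao, the enzyme just before it (-3.19 ± 0.16). Of 12 genes of gluconeogenesis and fructose use, 11 fell (median -2.51). G6pc, glucose-6-phosphatase, which releases free glucose, was at 6.25, 3.60, 7.71 and 6.97 CPM in AKI_mcherry and 308, 566, 371 and 398 CPM in NC (log2 change -6.06 ± 0.29, adjusted p = 1.27e-07). No injured library came near a control. The exception in that list was Pck2, the mitochondrial form of phosphoenolpyruvate carboxykinase, which rose by 0.69. Ketone body enzymes had 6 lower and 1 higher of 7, and Oxct1, which lets cells burn ketones, fell (-2.06).

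Other pathways of metabolism were divided. Among 20 serine, glycine and one-carbon genes, 7 rose and 13 fell. Those that make serine, Phgdh (2.20) and Psat1 (1.82), rose together with Mthfd2 (3.18), the mitochondrial folate enzyme of proliferating cells. Those that oxidise glycine and its methyl derivatives, Sardh (-2.55), Dmgdh (-2.25) and Gldc (-1.30), fell. Mthfd2 was at 26.7, 35.1, 28.2 and 32.1 CPM in AKI_mcherry and 2.92, 3.50, 3.11 and 3.94 CPM in NC, with no overlap. In glycolysis 7 of 18 genes rose and 2 fell. Hk2, the inducible hexokinase, rose by 4.03, Pkm by 1.29 and the glucose transporter gene Slc2a1 by 1.37, while the muscle type phosphofructokinase gene Pfkm fell (-1.46). The pentose phosphate pathway, which supplies NADPH, had 7 of 10 higher: G6pdx (1.48), Pgd (1.91) and Taldo1 (1.62), enzymes of its oxidative and non-oxidative arms, all rose. Of 18 purine and uric acid genes 13 rose, among them Aprt (1.57) and Hprt (1.25), which salvage bases, Atic (0.87), of the synthesis pathway, and Xdh (1.98), which makes uric acid. Uox, whose product degrades uric acid in mice, had no counts in NC and was at 1.83, 3.56, 2.12 and 3.44 CPM in AKI_mcherry. The 2 genes that fell were Paics (-0.86) and Ppat (-0.45), both of the synthesis pathway, and the log2 change of Ppat was not called with libraries scaled by totals (-0.32) or without AKI_mcherry replicate 2 or 3 or NC replicate 2, 3 or 4. In cholesterol synthesis and its control 13 of 24 genes fell, with Cyp51 at -2.25, and 4 rose, with Msmo1 at 1.48.

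Respiratory chain genes fell far less than the enzymes that feed the chain. Of 46 complex I genes 22 fell (median -0.39). ATP synthase had 8 of 17 lower (median -0.34). Complex IV and its assembly factors had 4 of 22 genes lower and 3 higher, with 7 lower when AKI_mcherry replicate 2 was left out. That replicate was the highest injured library for 44 of the 46 complex I genes. The same held for 17 of the 22 complex IV genes and 13 of the 17 ATP synthase genes. With genes grouped by length, as described below, 33 of 46 complex I genes lie in the 2 shortest groups. Of mitochondrial fatty acid oxidation genes, 6 of 20 lie there. The part of gene length in the smaller fall was not tested. Of the 13 proteins encoded in mitochondrial DNA, 5 fell, all parts of complex I and ATP synthase, and 3 without AKI_mcherry replicate 4 or NC replicate 1. Of the others, mt-Co1, a core subunit of complex IV, was at 42169, 48594, 44571 and 37671 CPM in AKI_mcherry and 49939, 45795, 46332 and 48898 CPM in NC (adjusted p = 0.433), with overlapping groups. Ppargc1a, the coactivator that drives mitochondrial gene expression, fell (-1.83), as did Pink1, which marks damaged mitochondria (-1.67).

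Solute transport fell broadly, but not in every family. Of 295 solute carrier genes of all families, 152 fell and 61 rose. The SLC22 carriers, which take up drugs and organic anions and cations, had 19 of 23 lower, with a median of -2.16. Slc22a22, a prostaglandin-specific carrier, was at 1.95, 3.18, 1.81 and 2.85 CPM in AKI_mcherry and 100.1, 134, 128 and 107 CPM in NC (log2 change -5.58 ± 0.21, adjusted p = 4.74e-08). All 4 injured libraries were far below the controls. The only SLC22 gene that rose was Slc22a15 (1.34). Sugar carriers of SLC2 and SLC5 had 16 of 22 lower, including Slc5a8 for lactate and short-chain acids (-4.23) and Slc5a11 and Slc2a12 for sugars and inositol (-2.99 and -2.82). Slc2a1 and the inositol carrier gene Slc5a3 (0.83) rose. The Na,K-ATPase and its basolateral partners had 11 of 12 lower, among them Atp1b1 (-0.84) and the bicarbonate exporter gene Slc4a4 (-2.32). Of the brush border genes 15 of 18 fell, such as the scaffold gene Pdzk1 (-2.92) and the aminopeptidase gene Anpep (-3.09). Ezr, for the membrane-to-actin linker ezrin, was the exception and rose (0.97). The uptake receptor genes Lrp2 and Cubn, for megalin and cubilin, fell (-3.26 and -3.02).

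Other families had members that rose and members that fell. Among acyl-CoA synthetases most fell, with 2 higher and 11 lower of 14 (median -1.15). Acsm5 fell by the most (-4.07). The members that rose were Acsl5 (1.26) and Acsl4, which loads arachidonic acid onto coenzyme A. Acsl4 was at 179.9, 156, 156 and 182 CPM in AKI_mcherry and 34.1, 40.3, 38.8 and 44.0 CPM in NC (log2 change 2.10 ± 0.11, adjusted p = 1.86e-07). Every injured library was above every control. Carbonic anhydrases, which interconvert carbon dioxide and bicarbonate, had 7 lower and 4 higher of 14, with the membrane-bound Car14 and Car4 lower (-6.45 and -3.24) and the cytosolic Car13 higher (2.85). Aldo-keto reductases had 4 higher and 9 lower of 16: the steroid-metabolising Akr1c14 and Akr1c21 fell (-5.36 and -4.28), and Akr1b8, which reduces reactive aldehydes, rose by 5.36. Akr1b8 was at 103, 145, 124 and 115 CPM in AKI_mcherry and 3.11, 3.60, 2.76 and 2.40 CPM in NC. The organic anion carriers SLCO had 6 lower and 3 higher of 9, with Slco2a1, the prostaglandin carrier, rising by 1.93. Zinc carriers had 8 higher and 7 lower of 20, such as Slc39a6 (2.19) and Slc39a5 (-3.60). Cadherins, cell adhesion proteins, had 6 higher and 4 lower of 12: the placental cadherin gene Cdh3 and the epithelial Cdh1 rose (2.22 and 1.10), and Cdh16, the kidney-specific cadherin, fell (-0.71). Members of these families can be similar in sequence, and how the counting shared reads between near copies (the Akr1c, Slco1a and Slc22a clusters) is not given in the sources used here.

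Enzymes that detoxify drugs and metabolites changed in both directions. Cytochromes P450, which oxidise fatty acids, steroids and drugs, had 24 of 50 lower and 7 higher. Cyp2e1, which oxidises ethanol and ketones, was at 221, 130.2, 89.2 and 128 CPM in AKI_mcherry and 1095, 1561, 1883 and 1426 CPM in NC (log2 change -3.39 ± 0.28, adjusted p = 4.05e-06), and the arachidonic acid epoxygenase gene Cyp2c23 fell too (-2.66). Cyp3a13 (3.14) and Cyp2a5 (3.17), of drug oxidation, rose. Glutathione S-transferases, which couple reactive compounds to glutathione, had 10 of 24 higher and 7 lower. Gsta4, specific for lipid peroxidation products, rose (1.33), as did the microsomal Mgst1 (1.63), and Gstz1, which also degrades tyrosine (-2.45), and the peroxisomal and mitochondrial Gstk1 (-1.89) fell. Among UDP-glucuronosyltransferases, which couple compounds to glucuronic acid, 8 of 15 fell, among them Ugt3a1 (-4.27), and 1 rose (Ugt1a9, not called by limma-voom; median of the family -1.58). Sulfotransferases had 3 higher and 4 lower of 8 (1 higher with all counts divided by 4). Members of these families have near copies, and the mouse Ugt1a genes share exons, so single values of such members are uncertain.

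**Figure D3:**
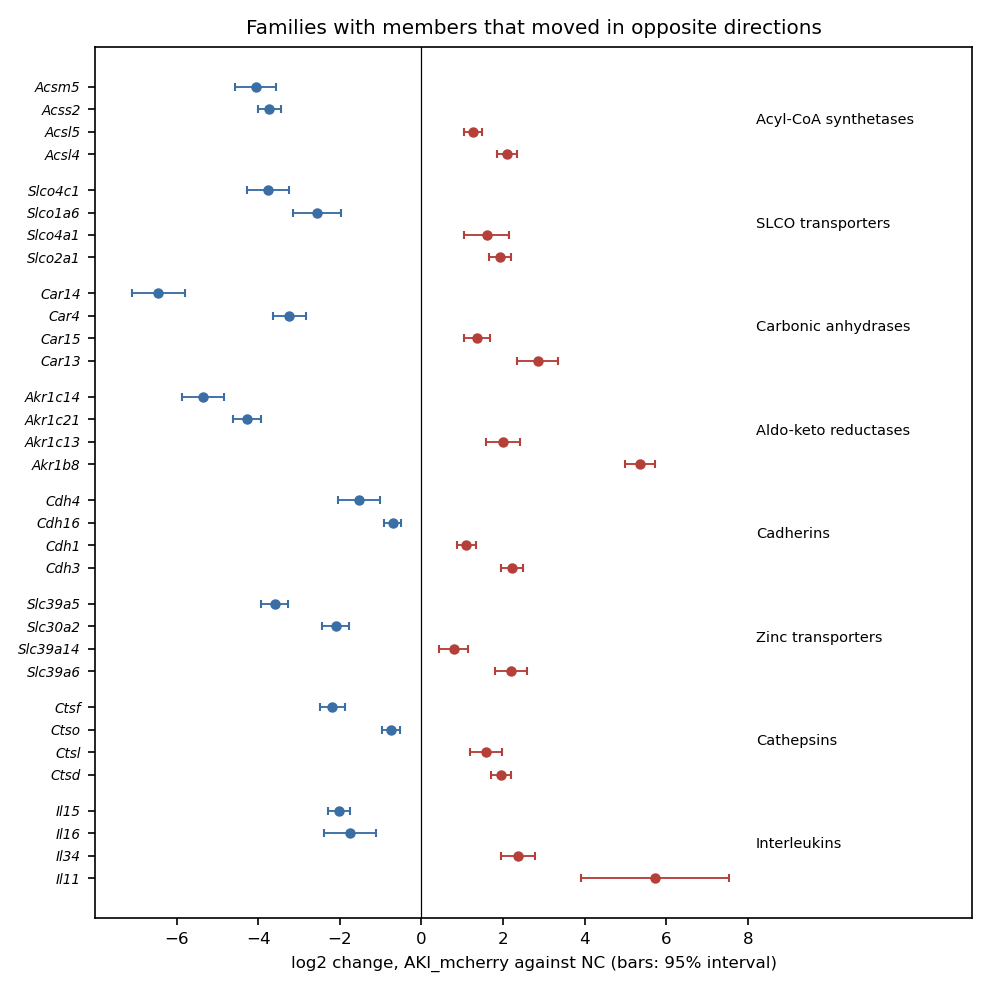
log2 change with its 95% interval for members of 8 gene families in which genes rose (red) and fell (blue). All intervals exclude 0. The widest spread within a family is that of the aldo-keto reductases, from -5.36 for Akr1c14 to 5.36 for Akr1b8 among the genes shown.

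Genes of the proteasome rose together, and genes of lysosomal enzymes did not. All 31 genes of the proteasome core and cap, the machine that degrades ubiquitin-tagged proteins, rose, against 27.2% of all genes, with log2 changes from 0.32 to 1.38 (median 0.89). Psmd2, a scaffold subunit of the cap, was at 341, 306, 312 and 323 CPM in AKI_mcherry and 148, 162, 170.3 and 153 CPM in NC (log2 change 1.02 ± 0.09, adjusted p = 6.45e-06). The replicates were close together in both groups. Of 29 lysosomal hydrolases 17 fell and 7 rose (median -0.57). The glycosidase gene Glb1 and the sulfatase gene Arsb fell (-1.49 and -1.74), whereas the protease genes Ctsd, Ctsl and Ctsb, for cathepsins D, L and B, rose (1.95, 1.58 and 1.27). Ctsd was at 2553, 2338, 2834 and 2567 CPM in AKI_mcherry and 694, 686, 629 and 646 CPM in NC. The summed level of the list was 8012 to 10362 CPM in AKI_mcherry and 7135 to 7739 CPM in NC, higher in every injured library although most of its genes fell. The whole family of cathepsins had 5 higher and 5 lower of 13, and its share of the FPKM sum went from a mean of 0.128% to 0.363%. Autophagy genes were divided, with 6 higher and 9 lower of 25: Sqstm1, for the cargo receptor p62, rose (1.10) and Gabarapl1, of the autophagosome membrane, fell (-1.46).

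Genes of protein synthesis rose together. Of 81 cytosolic ribosomal protein genes 78 rose (median 1.13). Rpl12, of the large subunit, was at 379.8, 652, 492 and 429.9 CPM in AKI_mcherry and 175, 136, 105 and 118 CPM in NC (log2 change 1.87 ± 0.20, adjusted p = 2.58e-05). Replicate 2 was the highest injured library for 79 and replicate 1 the lowest for 78 of the 81 genes, and all 4 injured libraries were above all controls for 77. Gene length moved with this result: with all genes of known length ordered into 10 equal groups by length, the median change was 0.36 in the shortest group and -0.17 in the longest, and 52 of 81 ribosomal protein genes lie in the 2 shortest groups. Of complex I genes, whose median change was -0.39, 33 of 46 lie there. Of the proteasome core and cap genes, 11 of 31 lie there. The part of gene length in the rise of ribosomal protein and proteasome genes was not tested. Ribosome biogenesis genes had 28 of 30 higher (median 1.00), with the nucleolar proteins Nop58 and Nop56 at 1.99 and 1.88. Transfer RNA synthetases of the cytosol, which load amino acids, had 18 of 20 higher (median 0.85), and snRNP proteins of the spliceosome 11 of 12. Of the snRNP genes 6 of 12 lie in the 2 shortest length groups.

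Since proteasome and ribosomal protein genes rose together, their promoters were searched for shared letters. Promoters here are the 250 bases before the start of 11770 protein-coding genes tested, from RefSeq on GRCm38.p6, read on both strands for 17 short motifs. Only some of these motifs are reported, and the ETS site was picked from them without a test. The core of the ETS factor site, CCGGAAG, was in 12.4% of all these promoters, in 18 of the 61 of ribosomal proteins (29.5%), in 8 of the 25 of the proteasome (32%) and in 10 of the 29 of DNA replication genes (34.5%). Among genes that fell at least 4-fold it was in 3.90%, and among those that rose at least 4-fold in 5.56%. A match is a description of letters and shows no binding. The promoters of Psmd2 (chr16:20651402-20651651, plus strand) and Rpl19 (chr11:98026460-98026709, plus strand), a ribosomal protein gene that rose by 1.03, show where the motif can lie, with its reverse complement in capitals:
Psmd2: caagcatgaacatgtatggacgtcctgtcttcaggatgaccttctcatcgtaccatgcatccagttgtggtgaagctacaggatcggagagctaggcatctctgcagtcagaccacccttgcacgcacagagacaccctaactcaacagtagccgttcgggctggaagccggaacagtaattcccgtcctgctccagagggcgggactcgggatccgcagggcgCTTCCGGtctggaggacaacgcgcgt
Rpl19: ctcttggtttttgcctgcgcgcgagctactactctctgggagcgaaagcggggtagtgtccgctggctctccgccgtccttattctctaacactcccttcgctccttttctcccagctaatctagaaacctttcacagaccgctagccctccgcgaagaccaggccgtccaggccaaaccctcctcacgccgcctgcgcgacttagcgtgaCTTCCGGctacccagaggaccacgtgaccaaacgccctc

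Several cytoskeletal and membrane-binding families rose, and others were mixed. Tubulins, the building blocks of microtubules, had 11 of 16 higher and none lower (median 1.91). Tubb6 was at 63.1, 74.0, 76.1 and 56.9 CPM in AKI_mcherry and 8.72, 5.84, 7.13 and 7.79 CPM in NC (log2 change 3.20 ± 0.15, adjusted p = 1.24e-07), and Tuba1c and Tubb2b rose by 2.61 and 2.79. Injured and control libraries were far apart for each of them. Tropomyosins had all 5 higher, with Tpm4 at 2.64, and regulators of actin and its transcription factor SRF 18 of 23, with Flna, the actin cross-linker filamin A, at 1.61 and Tagln2 at 1.83. Keratins, the intermediate filaments of epithelia, had 13 of 16 higher. Krt8, of simple epithelia, was at 513, 701, 739 and 509.9 CPM in AKI_mcherry and 123, 129, 95.0 and 80.4 CPM in NC, and Krt14 and Krt17, of layered epithelia, which were at or near 0 in NC, reached 23.2, 13.2, 22.5 and 15.9 and 2.34, 3.23, 1.90 and 1.58 CPM. Urothelium markers, which include Krt5 and Krt14, overlapped between groups, with summed levels of 47.7 to 229 against 6.70 to 91.9 CPM. Without Krt5 and Krt14 they were at 10.8 to 135 against 6.47 to 81.5 CPM, and none of the 5 uroplakin genes was called. The part of urothelium in the keratin result was not tested. Annexins, which bind membranes in the presence of calcium, had 8 of 10 higher, such as Anxa3 (4.49) and Anxa2 (4.09). Their partners, the S100 proteins, had 12 of 14 higher (median 2.99), while S100g, for the calcium carrier calbindin, fell (-0.62). S100a11 was at 411, 771, 599 and 467 CPM in AKI_mcherry and 95.0, 69.7, 62.8 and 64.7 CPM in NC (log2 change 2.94 ± 0.22, adjusted p = 1.91e-06). Of the S100 genes 11 of 11 lie in the 2 shortest of those length groups. So do 12 of 14 keratin and 9 of 12 tubulin genes of known length. The part of gene length in the rise of these families was not tested. Motor proteins had 11 higher and 9 lower of 35 myosins (31.4% and 25.7%) and 7 higher and 6 lower of 36 kinesins (19.4% and 16.7%). Over all genes 27.2% rose and 26.0% fell. Claudins, which seal the spaces between epithelial cells, had 9 higher and 4 lower of 20, with Cldn4 and Cldn1 higher (3.62 and 2.54) and Cldn10 lower (-2.90).

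**Figure D4:**
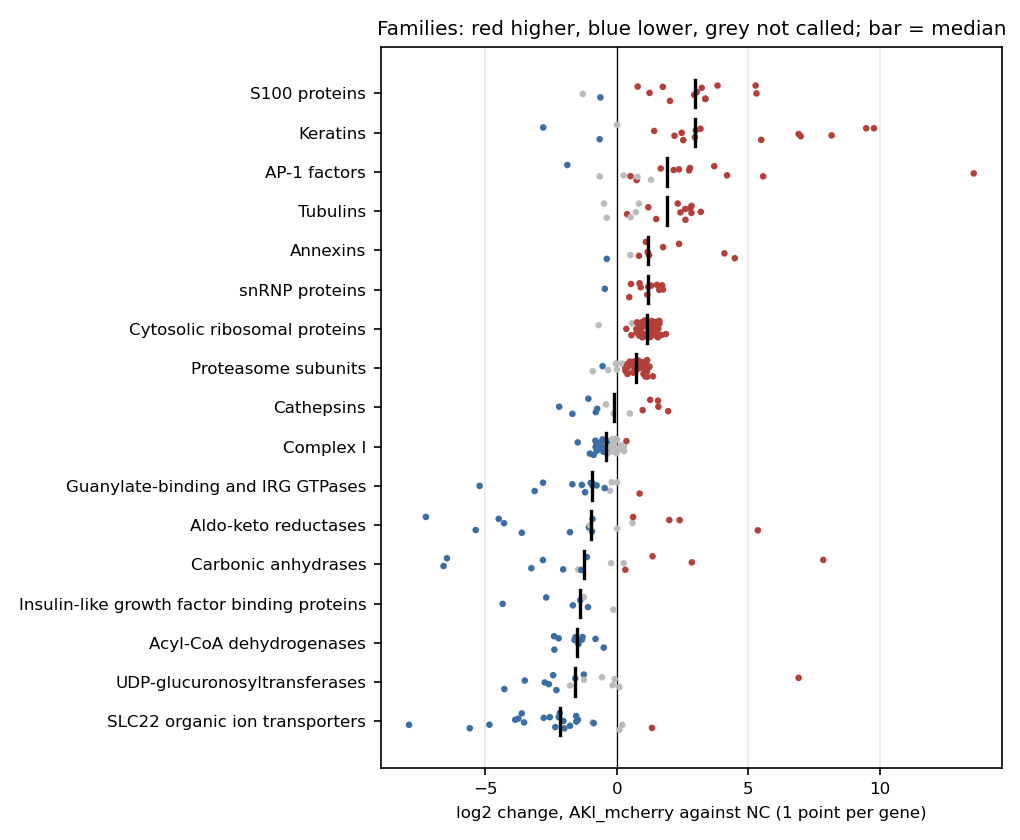
log2 change of each tested member of 17 gene families, 1 point per gene, with red for higher, blue for lower and grey for not called, and a bar at the family's median. Medians run from -2.16 for SLC22 carriers to 2.99 for S100 proteins. Ribosomal protein genes cluster tightly around 1.13, while keratins spread widely.

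Some genes that fix cells to the matrix and remodel it rose and others fell. Integrins, the receptors for matrix proteins, and genes named after them had 11 of 30 higher and 7 lower. These shares, 36.7% and 23.3%, compare with 27.2% and 26.0% of all genes. Itga3, of the laminin receptor, was at 173, 171, 229.9 and 195 CPM in AKI_mcherry and 38.6, 40.1, 35.4 and 41.6 CPM in NC (log2 change 2.30 ± 0.12, adjusted p = 1.74e-07), with no overlap, and Itgb4 and Itga5 rose as well (2.12 and 2.27). Itgb8, which activates TGF-beta, fell (-1.30). Matrix metalloproteinases had 9 of 17 higher and 3 lower (Mmp11, Mmp2 and Mmp13). Mmp7, for matrilysin, which tubule epithelium can secrete, was at 4.11, 7.50, 7.66 and 4.46 CPM in AKI_mcherry and 0.324, 0, 0 and 0 CPM in NC (log2 change 6.22 ± 0.97, adjusted p = 3.41e-04). Mmp10, which cleaves other matrix proteins, was near 0 in NC and at 6.29, 4.48, 9.97 and 5.35 CPM in AKI_mcherry. Plaur, for the urokinase receptor, rose by 4.64, and urokinase itself, Plau, was at 0.23 and not called (adjusted p = 0.353). Targets of YAP and TEAD, which respond to cell shape and stiffness, had 11 of 20 higher. The matricellular protein genes Ccn1 and Ccn2 and the muscle stress gene Ankrd1 rose by 2.78, 1.75 and 3.56.

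The AP-1 family of stress-responsive transcription factors had 11 of 16 genes higher (median 1.92). Atf3 was at 44.8, 52.5, 61.4 and 35.6 CPM in AKI_mcherry and 1.16, 1.36, 0.598 and 0.999 CPM in NC (log2 change 5.56 ± 0.27, adjusted p = 1.27e-07). Jun was at 127, 109.8, 143 and 112 CPM in AKI_mcherry and 17.6, 18.7, 15.8 and 19.5 CPM in NC (log2 change 2.78 ± 0.12, adjusted p = 7.36e-08). Fosl1 had no counts in NC and was at 22.7, 19.6, 32.3 and 21.7 CPM in the injured libraries. Maf was the member that fell (-1.88). The AP-1 site, TGANTCA, was in 4.78% of all promoters, in 12.04% of the 540 of genes that rose at least 4-fold and in 6.33% of the 616 of genes that fell as much. In 44 of 563 promoters its letters overlapped those of the antioxidant element core, TGACNNNGC. Promoters with more than 1 AP-1 match numbered 18 in all, of which 6 belonged to genes that rose at least 4-fold. They include S100a11 (chr3:93520246-93520495, plus strand) and Srxn1, for sulfiredoxin, which repairs oxidised peroxiredoxins (chr2:152105274-152105523, plus strand). Both sequences run 5′ to 3′ toward the start site, with the AP-1 letters in capitals:
S100a11: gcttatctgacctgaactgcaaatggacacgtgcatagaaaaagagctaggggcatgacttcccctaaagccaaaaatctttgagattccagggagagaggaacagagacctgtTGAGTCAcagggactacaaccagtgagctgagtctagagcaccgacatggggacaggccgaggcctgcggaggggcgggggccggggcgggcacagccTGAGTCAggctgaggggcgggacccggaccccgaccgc
Srxn1: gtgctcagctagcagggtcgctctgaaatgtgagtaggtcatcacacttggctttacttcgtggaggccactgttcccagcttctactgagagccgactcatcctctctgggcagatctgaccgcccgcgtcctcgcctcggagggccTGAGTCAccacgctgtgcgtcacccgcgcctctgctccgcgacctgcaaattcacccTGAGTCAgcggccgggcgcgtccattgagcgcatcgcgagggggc
S100a11 rose by 2.94 and Srxn1 by 3.77.

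Stress programmes rose to different degrees. Targets of ATF4, the factor of the integrated stress response to amino acid shortage and misfolded protein, had 17 of 19 higher (median 2.41). Slc7a11, the cystine importer that feeds glutathione synthesis and is also a target of the oxidant sensor NRF2, was at 25.8, 22.7, 30.6 and 23.1 CPM in AKI_mcherry and 0.171, 0.229, 0.0307 and 0.149 CPM in NC (log2 change 7.46 ± 0.34, adjusted p = 1.01e-07). NC values were close to 0 in all 4 libraries. Slc7a5, a leucine carrier, rose by 2.99, and Trib3, Asns and Ddit3 by 4.58, 3.02 and 2.53. The amino acid response element TGATGNAA, to which ATF4 can bind, was in 2.02% of all promoters, in 4 of 18 ATF4 targets and in 3 of 12 tRNA synthetase promoters, counts too small to give a firm share. Slc7a11 (chr3:50443614-50443863, minus strand) has it once on each strand and Aars, the alanine tRNA synthetase gene (chr8:111033592-111033841, plus strand), once on the reverse strand, in capitals:
Slc7a11: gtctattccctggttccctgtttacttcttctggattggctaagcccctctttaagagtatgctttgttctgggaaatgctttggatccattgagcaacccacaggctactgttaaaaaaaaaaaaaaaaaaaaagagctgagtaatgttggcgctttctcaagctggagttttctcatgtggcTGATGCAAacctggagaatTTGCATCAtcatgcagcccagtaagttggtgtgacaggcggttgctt
Aars: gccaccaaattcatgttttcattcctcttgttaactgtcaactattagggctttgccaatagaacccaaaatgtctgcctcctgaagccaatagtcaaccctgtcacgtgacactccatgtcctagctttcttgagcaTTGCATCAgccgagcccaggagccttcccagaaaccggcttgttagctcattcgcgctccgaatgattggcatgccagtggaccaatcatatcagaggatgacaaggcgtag
Aars was at 212, 258, 221 and 210.2 CPM in AKI_mcherry and 90.7, 93.5, 108 and 102 CPM in NC (log2 change 1.19 ± 0.10, adjusted p = 5.79e-06).

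NRF2 targets had 15 of 20 higher (median 1.22), and p53 targets 15 of 22 (median 1.44). Cdkn1a, for the cell cycle inhibitor p21, was at 155, 125, 229 and 141 CPM in AKI_mcherry and 4.73, 3.34, 2.71 and 3.24 CPM in NC (log2 change 5.54 ± 0.25, adjusted p = 9.92e-08), and the secreted stress cytokine gene Gdf15 rose by 3.75. For Cdkn1a the lowest injured library was far above the highest control. Sesn1, a p53 target that restrains growth signalling, fell (-1.31). In the endoplasmic reticulum the chaperone list divided, with 10 higher and 5 lower of 20: Hspa5 (BiP) rose (1.62) and Herpud1, of protein disposal, fell (-1.22). Among cytosolic heat shock proteins 15 of 20 rose, most of all the small Hspb1 (4.95), while the constitutive Hspa8 was at 1689, 2053, 1637 and 1671 CPM in AKI_mcherry and 1511, 1716, 1719.6 and 1856 CPM in NC (adjusted p = 0.742). Genes of iron, zinc and copper handling had 8 higher and 6 lower of 19. Mt2 was at 443, 974, 665 and 490.4 CPM in AKI_mcherry and 17.1, 13.9, 17.9 and 11.9 CPM in NC. Hypoxia response genes had 4 higher and 6 lower of 18, 22.2% and 33.3% against 27.2% and 26.0% of all genes. Car9 and Vegfa were lower (-2.80 and -1.12) and Hk2 higher. Death pathway genes had 8 higher and 2 lower of 23 (median 0.23), so most were not called, and the share that rose, 34.8%, compares with 27.2% of all genes. Those that rose include the pair that carries out necroptosis. Mlkl, the membrane-permeabilising effector, was at 18.8, 16.2, 17.4 and 15.3 CPM in AKI_mcherry and 1.43, 0.818, 1.04 and 0.731 CPM in NC (log2 change 4.07 ± 0.22, adjusted p = 2.36e-07), and its kinase Ripk3 rose by 2.75. The survival genes Bcl2l1 and Mcl1 rose too (1.56 and 1.13), and Casp9 fell (-0.59).

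Ligands of the EGF receptor family changed in both directions. Egf, made by the thick ascending limb and distal convoluted tubule, was at 20.7, 10.9, 21.2 and 19.04 CPM in AKI_mcherry and 1712, 1664, 1629.9 and 1754 CPM in NC (log2 change -6.55 ± 0.23, adjusted p = 3.71e-08). Its injured libraries held a small remainder of the control level. Btc fell as well (-0.96). Other ligands rose: Hbegf by 2.00, Nrg1 by 2.39 and Tgfa by 1.19, and Areg, with no counts in NC, was at 2.14, 2.14, 1.24 and 1.55 CPM in AKI_mcherry. The receptor gene Egfr was at 57.6, 47.1, 45.1 and 66.0 CPM in AKI_mcherry and 44.2, 52.3, 57.6 and 61.4 CPM in NC (adjusted p = 0.992), with overlapping groups. Genes switched on by ERK signalling, some of which restrain it, had 14 of 17 higher, Dusp5 by 5.21 and Phlda1 by 2.89. TGF-beta and BMP genes had 12 of 26 higher, including the receptor gene Tgfbr1 (1.11). Bmp7, which maintains tubule epithelium, fell (-1.06). Of 26 WNT genes 10 fell and 3 rose (Wnt7a, Wnt10a and Tcf7; 5 without AKI_mcherry replicate 1), with Fzd1 at -1.58 and the secreted inhibitors Sfrp1 and Notum at -2.25 and -2.37. Insulin-like growth factor binding proteins had 5 of 7 lower, among them Igfbp4 (-2.68). Of 20 genes for nuclear receptors of steroids, bile acids and other ligands and for their receptor partners, 9 fell and 1 rose (Rarg; 2 without NC replicate 4). Those that fell include the vitamin D receptor gene Vdr (-1.92), the estrogen receptor gene Esr1 (-2.10) and the mineralocorticoid receptor gene Nr3c2 (-1.12).

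Transcription factors that specify tubule identity fell in part. Hnf4a, the proximal tubule regulator, was at 177, 176.3, 91.5 and 173 CPM in AKI_mcherry and 629, 710.1, 719 and 784 CPM in NC (log2 change -2.20 ± 0.20, adjusted p = 8.26e-06). Its injured replicate 3 was lowest, as for 11 of 16 proximal tubule markers. Ppara and Esrrg fell as well (-2.32 and -1.85), and Pax2 and Tfcp2l1 were not called. Sox9, a factor of progenitor and repairing epithelium, was at 40.3, 30.0, 31.4 and 31.8 CPM in AKI_mcherry and 0.546, 0.458, 0.705 and 0.358 CPM in NC (log2 change 6.01 ± 0.21, adjusted p = 3.71e-08). Every injured library was far above every control. The epithelial factors Elf3, Ehf and Grhl2 also rose (2.30, 1.03 and 0.94). In all, 8 of 26 nephron factors rose and 11 fell, 30.8% and 42.3% against 27.2% and 26.0% of all genes. Genes of the primary cilium, the sensory antenna of tubule cells, had 15 of 26 lower and 2 higher (Ift43 and Kif3a), with Ift122 at -1.89 and the polycystin gene Pkd2 at -0.90. The circadian clock was split: the output factors Hlf and Tef fell (-3.92 and -1.81), as did Per3 and Dbp (-1.21 and -1.19), while Nfil3, which opposes them, rose (2.29) and Clock was not called (0.08). Hlf was at 8.50, 6.56, 10.03 and 7.48 CPM in AKI_mcherry and 96.4, 124, 135 and 139 CPM in NC. The labels give no hour of collection, so time of day cannot be told apart from injury here.

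Markers of the segments beyond the proximal tubule changed unevenly. The thin limb had 3 higher and 2 lower of 7 (median 0.60). Those higher were Cldn4, Cryab and Slc4a11, and Aqp1, a marker shared with the proximal tubule, fell (-3.22). In the thick ascending limb, which dilutes the urine, 8 of 10 markers fell. Slc12a1, for the sodium-potassium-chloride carrier blocked by loop diuretics, was at 86.1, 83.9, 106 and 80.8 CPM in AKI_mcherry and 1601, 1076, 1075 and 1113 CPM in NC (log2 change -3.77 ± 0.17, adjusted p = 1.01e-07). Umod, for uromodulin, the main urinary protein, fell less (-0.70). The distal convoluted and connecting tubules had 5 of 9 lower, with Calb1, a calcium buffer, at -2.17. Principal cells of the collecting duct had 2 higher and 3 lower of 10 (median -0.07). Of these Aqp3, a basolateral water channel, fell (-1.28), Fxyd4, which regulates the sodium pump, and the transcription factor gene Gata3 rose (1.10 and 0.59). Fxyd4 was not called without AKI_mcherry replicate 3 (0.75) or NC replicate 3 or 4, and Gata3 not with the replicate number as a block. Aqp2, the water channel set by vasopressin, was at 148, 404, 475 and 159 CPM in AKI_mcherry and 249, 206, 117 and 159 CPM in NC (adjusted p = 0.150), with overlapping groups. Intercalated cells had 5 of 10 markers lower. Of these Slc4a1, for the chloride-bicarbonate exchanger of red cells and intercalated cells, was at -3.96. Red cell markers summed to 23.5 to 175 CPM in AKI_mcherry and 103 to 283 CPM in NC, and their part in the Slc4a1 value was not tested. Among aquaporins this fall of Aqp1, of the proximal tubule and thin limb, was the largest (-3.22).

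**Figure D5:**
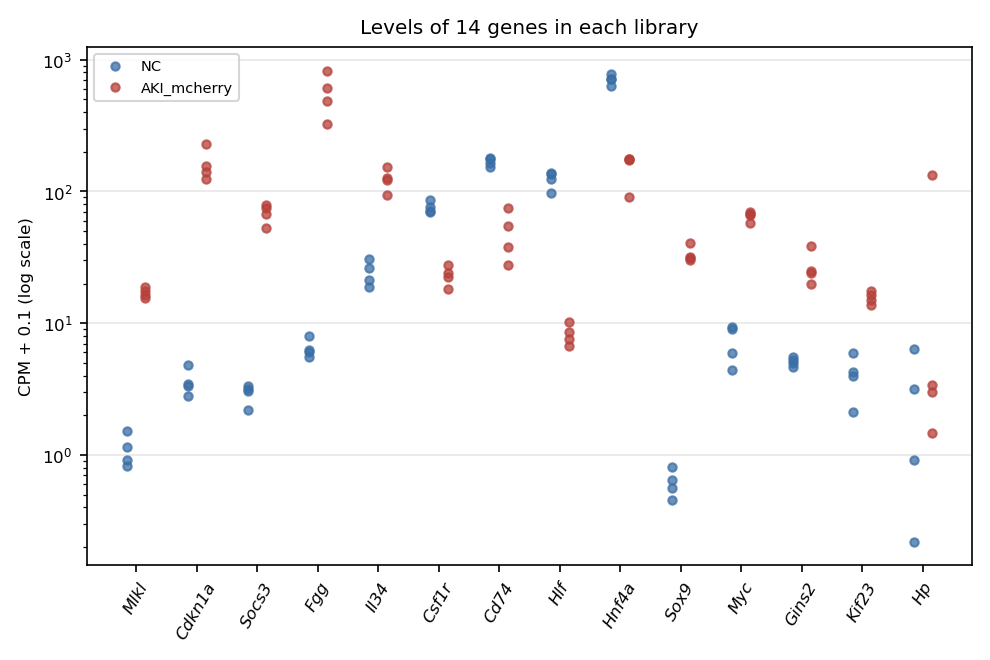
CPM plus 0.1 in each library (log axis) for 14 genes, 1 point per library. Sox9, Socs3, Cdkn1a, Mlkl and Fgg are higher in all AKI_mcherry libraries than in any NC library, and Hnf4a, Hlf, Csf1r and Cd74 lower. Hp overlaps between groups, with 1 AKI_mcherry library far above the rest.

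Cytokine responses were strong and selective. Genes of the IL-6 and STAT3 response had 16 of 21 higher, with the largest median of the lists plotted (3.77). Fgg, the fibrinogen gamma chain, was at 827, 608, 324 and 483 CPM in AKI_mcherry and 5.44, 5.90, 7.91 and 6.15 CPM in NC (log2 change 6.46 ± 0.31, adjusted p = 1.27e-07), and Socs3, the feedback inhibitor of STAT3 signalling, rose by 4.59. Ligands of that pathway rose too: Lif was at 28.0, 24.7, 26.0 and 26.5 CPM in AKI_mcherry and 0.751, 0.850, 0.583 and 0.328 CPM in NC, and Il11 and Il24 at 8.03, 9.07, 3.73 and 5.03 and 2.59, 3.22, 6.11 and 3.78 CPM in AKI_mcherry, with 0 counts in 2 and 4 NC libraries. The receptor gene Lifr fell (-0.54) and Osmr rose (2.66). NF-kB targets had 18 of 24 higher (median 1.50), Cxcl1, which attracts neutrophils, by 4.88. In the tumour necrosis factor receptor family 9 of 16 rose, among them Tnfrsf12a, for the receptor of TWEAK, at 362, 362, 353 and 329 CPM in AKI_mcherry and 16.1, 12.1, 15.1 and 13.1 CPM in NC (log2 change 4.64 ± 0.12, adjusted p = 2.50e-08). Both groups were tight and far apart. The interferon list showed no common direction (8 higher and 5 lower of 27, 29.6% and 18.5% against 27.2% and 26.0% of all genes). Within it, Isg15 and Mx2, induced by type I interferon, rose (1.40 and 1.17), and Cxcl9 and Iigp1, induced by interferon gamma, fell (-2.50 and -1.69). The guanylate-binding and IRG GTPases, which act in defence inside cells, had 11 of 15 lower and Gbp7 higher. Those genes are near copies of each other in places. Of 8 genes of antigen presentation by MHC class II 7 fell (median -1.58): Cd74, the class II chaperone, was at 54.9, 74.4, 27.7 and 37.9 CPM in AKI_mcherry and 178, 175.8, 153 and 165 CPM in NC (log2 change -1.79 ± 0.25, adjusted p = 1.83e-04).

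Some genes of lipid mediators, chemokines and complement rose and others fell. Ptgs2, for the inducible cyclooxygenase that starts prostaglandin synthesis, was at 10.3, 6.85, 11.8 and 6.66 CPM in AKI_mcherry and 0.324, 0.752, 0.0613 and 0.462 CPM in NC (log2 change 4.47 ± 0.54, adjusted p = 5.41e-05). Hpgd, which inactivates prostaglandins, fell (-2.43), and the receptor genes went apart, with Ptger4 higher (1.92) and Ptger3 lower (-1.32). Across the list 10 of 23 rose and 5 fell. CXC chemokines had 8 of 10 higher and 2 lower (Cxcl9 and Cxcl12). Cxcl2, which attracts neutrophils, rose by 6.41, and Cxcl12, which holds blood cells and precursors in place, was at 16.9, 15.3, 9.25 and 10.6 CPM in AKI_mcherry and 219.9, 186, 139 and 151 CPM in NC (log2 change -3.74 ± 0.23, adjusted p = 5.04e-07). All injured libraries were below all controls for Cxcl12. Of complement and coagulation genes 9 of 29 rose and 11 fell, 31.0% and 37.9% against 27.2% and 26.0% of all genes. C3, the central complement component, was at 61.8, 35.5, 72.9 and 52.6 CPM in AKI_mcherry and 13.4, 20.9, 10.9 and 12.7 CPM in NC and rose (1.94), whereas the regulator Cd55, which protects host cells, fell (-1.24). F3, for tissue factor, which starts clotting, rose (2.11).

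Markers of white blood cells did not rise as a body. Of 13 macrophage and monocyte markers 3 rose (Cd68, Itgam and Spp1) and 3 fell (Csf1r, Adgre1 and Cx3cr1). That is 23.1% each way, against 27.2% and 26.0% of all genes. Csf1r, the receptor on which most tissue macrophages depend, was at 23.8, 27.4, 17.9 and 22.2 CPM in AKI_mcherry and 85.9, 71.4, 75.8 and 69.6 CPM in NC (log2 change -1.73 ± 0.14, adjusted p = 2.82e-06), while its ligand gene Il34 rose by 2.37. With libraries scaled by totals alone 5 rose. Without Spp1, which tubules also express, the summed level was 109.9 to 257 CPM in AKI_mcherry and 137 to 187 in NC. Neutrophil markers rose in all 5 tested of 10 listed, yet summed to 2.84 to 10.6 CPM against 0.736 to 1.32. The others did not pass the expression filter, which a gene low in NC can pass through its injured libraries alone. The count of 5 therefore gives no share of neutrophil markers that rose. B and plasma cell markers had 3 of 5 lower, with Ighm, the IgM heavy chain, at -2.52, T and NK cell markers 3 of 9 and dendritic cell markers 4 of 7. Their summed levels were at most 15.8, 7.88 and 16.4 CPM in any library. The part of these cells in the cytokine and MHC class II results was not tested. Endothelium had 3 of 12 markers lower (Cdh5, Tie1 and Tek; 6 without AKI_mcherry replicate 1) and podocytes 2 of 10 higher (Cdkn1c and Nes; 4 without AKI_mcherry replicate 2), with Nphs1, of the filtration slit, not called. Skeletal muscle markers summed to at most 1.82 CPM. Fat markers summed to 16.9 to 256 CPM in AKI_mcherry and 23.7 to 197 in NC, with none called, and 4 lower without AKI_mcherry replicate 3.

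DNA replication was the most complete of the cell cycle programmes. Of 36 replication genes 25 rose (median 0.88), including Gins2 of the helicase complex, at 19.9, 38.8, 24.8 and 24.1 CPM in AKI_mcherry and 4.85, 5.17, 4.58 and 5.40 CPM in NC (log2 change 2.43 ± 0.20, adjusted p = 3.62e-06). Replicate 1 was the lowest injured library for 28 and replicate 4 the highest for 24 of these genes. Of 32 mitosis genes 14 rose (median 0.70): Kif23, of cell division, by 1.97 and Cdk1, the mitotic kinase, by 1.24, whereas the mitotic cyclin genes Ccnb1 and Ccnb2 were at 0.44 and 0.14 and not called (adjusted p = 0.379 and 0.674). Among G1 regulators, Cdk6, which starts the cycle, rose (1.66) beside Cdkn1a, and Rbl2, which represses it, fell (-1.38). Myc, a driver of growth and of ribosome synthesis, was at 66.5, 70.1, 57.9 and 66.8 CPM in AKI_mcherry and 9.18, 5.89, 8.98 and 4.33 CPM in NC (log2 change 3.20 ± 0.23, adjusted p = 1.33e-06).

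Genes often used to scale other measurements were not all steady. Of 20 common reference genes, 9 rose and 3 fell, 45.0% and 15.0% against 27.2% and 26.0% of all genes. The share called in either direction, 60.0%, compares with 53.1% of all genes. Actb, for beta-actin, was at 979, 1264, 1069 and 984 CPM in AKI_mcherry and 391, 303, 303 and 362 CPM in NC (log2 change 1.66 ± 0.13, adjusted p = 3.16e-06), with no overlap between groups. Hprt rose by 1.25, Rplp0 by 1.13 and Ppia by 0.78, and B2m, Sdha and Gusb fell (-0.75 for B2m and -0.57 for Gusb). Tbp, the TATA-binding protein gene, was at 29.0, 28.3, 28.4 and 31.4 CPM in AKI_mcherry and 27.9, 31.0, 31.8 and 24.5 CPM in NC (log2 change 0.02 ± 0.11). Its groups overlapped, and so did those of Pgk1 (0.02 ± 0.09) and Eef1a1 (0.09 ± 0.11). A gene was counted as steady where the 95% interval of its change lay within 0.5 on the log2 scale of no change: 2509 genes met this, 13.4% of those tested. Scaling by totals alone moves every value up by about 0.12, which does not turn the direction of Actb, Hprt, B2m or Gusb.

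A few genes were absent from one group or uneven within a group. In all, 20 genes had 0 counts in every NC library and at least 1 CPM in every AKI_mcherry library, and 6 the reverse. Of genes with a mean of at least 10 CPM in AKI_mcherry, 56 of 9638 had an SD above 1 on the log2 scale there, against 32 of 9529 in NC. Hp, for the hemoglobin-binding haptoglobin, was among them at 2.92, 3.31, 132 and 1.37 CPM in AKI_mcherry and 3.09, 6.33, 0.813 and 0.119 CPM in NC, and replicate 3 alone was high. Cfd, for adipsin of fat cells, was at 1.62, 0, 74.9 and 0 CPM in AKI_mcherry and 15.1, 55.4, 7.91 and 0.999 CPM in NC, and Car3, a carbonic anhydrase of muscle and fat, at 4.57, 1.65, 71.6 and 1.16 CPM in AKI_mcherry and 38.4, 83.5, 56.7 and 39.5 CPM in NC. In these genes AKI_mcherry replicate 3 was the highest injured library. Hp is a member of the IL-6 and STAT3 list and of the metal list and was not called in either (adjusted p = 0.0571). Lrrc32, for an anchor of latent TGF-beta, was at 44.4, 0.134, 14.4 and 26.8 CPM in AKI_mcherry and 10.9, 14.1, 12.1 and 14.5 CPM in NC, with replicate 2 near 0.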

How the data were processed

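Per the labels' protocols, poly(A)-selected, strand-marked (dUTP) libraries were sequenced as read pairs. The authors deposited counts per gene and FPKM per gene. Per the submitters' processing notes fastp, StringTie and edgeR were used on GRCm39. Aligner, annotation and counting rules: not given in the sources used here. Low deposited counts pile up at multiples of 4. Counts were tested with edgeR 4.0.16 by its 2-sided quasi-likelihood F test after filterByExpr and TMM scaling, with Benjamini-Hochberg adjustment over all genes tested. Each group has 4 libraries. Deposited FPKM served only for shares of expression. Gene lists (121 families besides) carry no test of their own, and members and lists were chosen with earlier results of these data known. Genes named follow a rule: the 12 largest gains and losses of share, per list up to 4 members with the smallest p and up to 2 against the trend, reference genes, steady genes, and genes uneven or at 0 in a group. Other list members named were chosen after their values were seen, and some genes that the rule names are not reported here. Alternatives included DESeq2 1.42.0 and limma 3.58.1. On simulated counts (18303 genes) in which 200 genes were drawn to change, the test recovered 8.82% of changes of 1.5-fold, 42.4% of 2-fold and 81.5% of 4-fold, with 6 false calls. In the real libraries 53.1% of genes were called. The adjusted p-value depends on how many genes change, so these shares do not measure how many changes were found here. Promoter sequences are from RefSeq on GRCm38.p6, matched by symbol, and a longer gene or deeper library gives a more precise value.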

Additional observations from a re-analysis of the deposited data

Results flagged for a closer look

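In groups of 4, a library was marked where its gap to the nearest other library was too large a share of the group's range (Dixon's criterion at the 95% level). For genes picked without regard to their spread, chance would mark about 1 in 20 groups. Of 556 gene and group pairs among the genes named, 46 were marked. Some of these genes were named for their spread within AKI_mcherry. A trace count in 1 library beside 0 in the others is always marked. The rate of 1 in 20 therefore does not apply to this set. Values follow as CPM in that library against the median of the other 3 libraries. AKI_mcherry replicate 1 was high for Cxcl1 (32.4 against 23.5), Hpgd (3.73 against 2.37), Psat1 (105 against 88.0), Sox9 (40.3 against 31.4) and Sqstm1 (1109.8 against 958). In AKI_mcherry replicate 1, values were low for Aqp1 (74.8 against 111). AKI_mcherry replicate 2 was high for Car4 (27.2 against 16.6), Car9 (2.60 against 1.70), Cyp7b1 (31.6 against 20.4), Ftl1 (7652 against 5595) and Hspa8 (2053 against 1671). In AKI_mcherry replicate 2, values were low for Col4a4 (55.0 against 71.5), Mx2 (1.32 against 2.10) and Pfkm (17.5 against 22.5). AKI_mcherry replicate 3 was high for Car3 (71.6 against 1.65), Cfd (74.9 against 0), Dnah9 (0.147 against 0), Ehf (65.5 against 47.8), Gata3 (21.7 against 13.2), Grhl2 (22.2 against 15.4), Gsta4 (80.9 against 50.3), Hp (132 against 2.92) and Rarg (24.7 against 18.5). In AKI_mcherry replicate 3, values were low for Hnf4a (91.5 against 176.3) and Slc27a2 (342 against 802). AKI_mcherry replicate 4 was high for Ugt1a9 (33.9 against 0.855). NC replicate 1 was high for Esr1 (21.98 against 19.3), Grhl2 (11.5 against 7.91), Mmp7 (0.324 against 0), Pdzk1 (1059.5 against 965), Slc12a1 (1601 against 1076) and Slc22a15 (3.65 against 2.35). In NC replicate 1, values were low for Gldc (30.8 against 56.8), Igfbp4 (531 against 733), Tagln2 (72.7 against 83.8) and Vegfa (178.9 against 234). NC replicate 2 was high for Mmp10 (0.0654 against 0) and Pax2 (24.5 against 21.1). In NC replicate 2, values were low for Cdh1 (149.6 against 163). NC replicate 3 was high for Krt17 (0.0613 against 0), Mx2 (1.20 against 0.720) and Ugt1a9 (0.307 against 0). In NC replicate 3, values were low for Tie1 (25.7 against 35.8). NC replicate 4 was high for Cyp2c23 (29.9 against 26.5), Osmr (9.68 against 7.77) and Srxn1 (63.5 against 52.0).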

How the results depend on the processing

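The analysis was repeated under 18 alternatives, with direction checked for the genes named: none reversed among 248 to 278 of them that could be fitted. Of 196 counts of list members higher or lower, 78 moved by over 1.5 times with the minimum change, 28 with a minimum mean of 5 CPM, 14 with library totals alone and fewer under each of the others. The counts of genes that rose and fell were 4370 and 4250 with the replicate number as a block. The deviations of same-numbered libraries from their group means correlated at -0.132 to 0.0392. With 4 libraries per group this cannot show whether libraries were paired, and the labels name no pairing. Leaving out 1 library gave 4643 to 5000 higher and 4273 to 4799 lower, and asking for a log2 change of at least 1 left 2444 and 2609. With libraries scaled by their totals alone 5828 rose and 3958 fell, and the median change of all genes was 0.12. At an unadjusted p under 0.05 there were 10927 genes, and DESeq2 called 9932 of the 9947 genes called in the same direction. Of 260 genes named and called, Ppat, Fxyd4, Gata3 and Ugt1a9 lost their call other than by the minimum change, as given above. Without the mitochondrially encoded genes in the sum, an alternative chosen after seeing the data, the share of Spp1 rose to a mean of 4.74% in AKI_mcherry from 0.111% in NC. Low deposited counts pile up at multiples of 4: dividing all counts by 4 gave 4822 higher and 4655 lower. Depth limits genes near the filter, and 4 libraries per group limit small changes.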

Other observations

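Genes other than protein-coding ones also differed between the groups. Of 563 long intergenic noncoding RNA genes tested 172 fell and 71 rose (median log2 change -0.56), and of 632 antisense genes 155 fell and 58 rose. Processed pseudogenes, copies of messenger RNA in the genome, had 321 of 1155 higher and 79 lower. Of the 107 named for ribosomal proteins, 59 rose and none fell (median 0.96), near the 1.13 of their parent genes, whose reads they can share. Host genes of small nucleolar RNAs, which guide the modification of ribosomal RNA, and a few other long noncoding genes had 10 of 18 higher and Snhg11 and Snhg14 lower, with Gas5 at 1.38 and Snhg1 at 1.78.

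In a short list of 12 genes known to differ between male and female mouse kidney, all fell (median -3.16). They include genes higher in males, such as Cyp4b1 (-2.45) and Cyp7b1 (-3.36), and genes higher in females, such as Slc7a12 (-4.51) and Prlr (-2.19). Most of them are proximal tubule genes. Genes of type IV collagen, the network of basement membranes, went apart, chosen here after their values were seen. Col4a1 and Col4a2, found in basement membranes everywhere, rose by 0.91 and 0.77 on the log2 scale, and Col4a3, Col4a4 and Col4a5, which form the network of the glomerulus and of some tubules, changed by -2.01, -1.56 and -0.79, all past the threshold in edgeR. Motile cilium genes were low and fell further: of 14 axonemal dynein genes 8 fell and none rose, with Dnah9 at -4.66.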
